A study of Mus musculus with 18 samples.

Results

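Among the fibroblasts of mouse back skin, 2928 cells carried at least 6 transcripts of the 4 genes Grem1, Wnt5a, Igfbp2 and Mme in sum. They were drawn from 10733 cells of a fibroblast gate and 47251 cells in all. Transcripts were counted as unique molecular identifiers (UMIs). A cell entered the gate when Col1a1, Col1a2, Col3a1 and Dcn made up at least 1% of its UMIs, at least 1 Pdgfra UMI was present, no Ptprc UMI was present and Krt5 with Krt14 stayed under 0.3% of UMIs. Members also had fewer than 3 UMIs of Coch and Crabp1 and fewer than 4 UMIs of Slc26a7, Prlr, Pappa2 and Corin. These 18 genes chose the cells, and their levels are described without a test. Shares of cells that they define are compared between the arms below.

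All mice had surgery on the back skin, and the expander arm in addition received a hydrogel under the skin that stretches it, while the control arm received none. The labels give no strain, sex, age or genotype. Single-cell 3′ libraries were made 1, 2 and 4 days later from living cells, 5 per arm: day 1 in sequencing rounds 1 and 2, day 2 in rounds 1 and 2, and day 4 in round 1. Each library pooled the mice of an arm in a round, so p-values below measure the spread between pools. Control libraries held 872 and 715 of the chosen cells on day 1, 133 and 222 on day 2, and 615 on day 4. Expander libraries held 208 and 116 on day 1, 27 and 7 on day 2, and 13 on day 4. Values for each library are given in that order throughout.

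Dermal fibroblasts make and remodel the collagen matrix of the skin and send signals to the hair follicle, epidermis and blood vessels. Grem1 encodes a secreted protein that binds bone morphogenetic proteins (BMPs) and keeps them from their receptors. Wnt5a encodes a Wnt ligand best known for signalling that does not use beta-catenin, Igfbp2 a secreted protein that binds insulin-like growth factors, and Mme the membrane peptidase neprilysin, which cleaves small peptides outside the cell. Coch, for the secreted protein cochlin, and Crabp1, for a retinoic acid binding protein, mark the other large group of fibroblasts met here.

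The working name of these cells puts Mme first, and the data did not bear that out. Grem1 gave between 33.0% and 83.4% of the members' marker UMIs, with a median of 61.8% over the 10 libraries. It had a UMI in 46.2% to 96.2% of the members. Wnt5a gave 13.9% ± 4.34 (SD, n = 10) of the marker UMIs and was seen in 78.6% ± 9.62 of the members. Mme gave only 4.93% ± 2.17 and was seen in 27.3% ± 7.11. Levels are given as CPM, the summed UMIs of a gene scaled to one common library total. The level of Mme was 87.4 ± 32.8 CPM in the members and 79.6 ± 25.0 CPM in the other fibroblasts (SD, n = 10). It was higher in the members in 5 of the 10 libraries, but the arms differed. In controls Mme was at 85.9 ± 26.2 and 69.5 ± 20.8 CPM, and lower in the members only on day 2, round 1. With the expander it was at 88.8 ± 41.6 and 89.7 ± 26.7 CPM, and higher in the members only on day 1, round 2. The other fibroblasts include the cells that the Coch and Crabp1 limit removed. Their part in this difference between the arms was not tested. Grem1 stood at 1146 ± 368 CPM in the members and 257 ± 201 CPM outside. It was higher in the members in 9 of 10 libraries, but at 316 and 685 CPM in the expander library of day 4. Wnt5a was at 273 ± 50.7 and 81.1 ± 25.1 CPM in controls. With the expander it was at 235 ± 94.8 and 193 ± 13.3 CPM, and at 86.3 and 192 CPM on day 2, round 2. Igfbp2 gave 20.4% ± 14.1 of the marker UMIs, on average more than Wnt5a, but was seen in 31.0% ± 12.9 of the members. The cells are called Grem1/Wnt5a fibroblasts below, after the genes seen in the largest part of the members.

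Igfbp2 marked a fraction of these cells, and that fraction varied between libraries. It gave between 0.637% and 39.2% of the marker UMIs and was seen in 6.31% to 46.0% of the members. Members with at least 3 Igfbp2 UMIs were 25.6%, 37.2%, 22.6%, 4.95% and 36.1% of the cells in the control libraries. In the expander libraries they were 19.2%, 20.7%, 37.0%, 0% and 30.8%, the fourth of these resting on 7 cells. The control library of day 2, round 2, thus stood apart from the other controls. The bar plot of marker UMIs shows the same mixture by library.

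**Figure D1:**
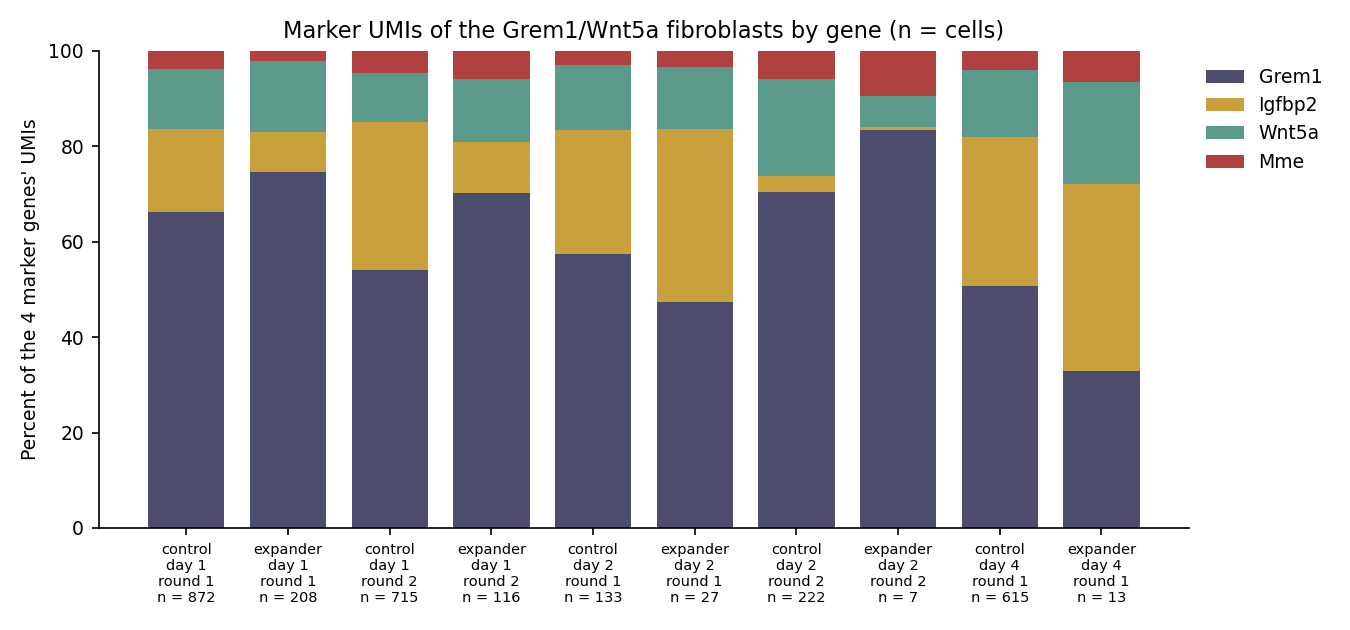
Stacked bars give the percent of the UMIs of Grem1, Igfbp2, Wnt5a and Mme that each gene contributed in the Grem1/Wnt5a fibroblasts of each library, with the number of cells under each bar. Grem1 led in 9 of 10 libraries. The Igfbp2 part was smallest in both libraries of day 2, round 2.

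The 4 genes went together in the whole gate, which the rule did not require, though Grem1 and Mme only weakly in most control libraries. After each cell was thinned to 5000 UMIs, fibroblasts with a Grem1 UMI had a Wnt5a UMI in a median of 55.9% of cells per library, against 23.2% of fibroblasts without Grem1. Fibroblasts with an Igfbp2 UMI had an Mme UMI in a median of 43.3% of cells, against 11.48% of those without. In the control libraries, 45.9%, 45.4%, 34.1%, 46.8% and 46.8% of fibroblasts with Mme had a Grem1 UMI. Of those without Mme, 41.8%, 41.6%, 31.5%, 30.8% and 44.0% had one. Each of the 12 ordered pairs of genes was higher with the partner than without it in every library with enough cells to compare (10 libraries, or 9 where Igfbp2 was the partner). The limit of 6 UMIs cut through a continuous range: 273 and 199 gate fibroblasts that met the other limits had 4 and 5 marker UMIs, and 161 and 159 had 6 and 7. Immune cells, which should lack these genes, had 6 marker UMIs in 0.0527% to 1.57% of cells, at median depths of 4917 to 10814 UMIs against 8095 to 17238 for the gate fibroblasts.

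Within the Grem1/Wnt5a fibroblasts, cells with at least 3 Igfbp2 UMIs and cells with none expressed different genes in the 6 libraries that had 20 or more of each. These genes were chosen after their values were seen, and no test was made. F13a1, for the A chain of coagulation factor XIII, stood at 438 ± 125 CPM in the Igfbp2 cells and 57.7 ± 73.2 CPM in the cells without (SD, n = 6). Mme was at 199 ± 57.7 and 39.9 ± 29.1 CPM, and Wnt5a at 424 ± 123 and 213 ± 37.8 CPM. The Igfbp2 cells also held more Col7a1, the anchoring fibril collagen under the epidermis, at 58.6 ± 34.3 and 12.6 ± 14.9 CPM, and more of the microfibril gene Mfap5, at 195 ± 53.5 and 51.2 ± 33.6 CPM. Each of these was higher in 6 of 6 libraries.

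Cells without Igfbp2 carried more of other genes, among them Ptgs2, C4b and C3. Ptgs2, the inducible enzyme of prostaglandin synthesis, was at 275 ± 203 CPM in them and 25.8 ± 20.8 CPM in the Igfbp2 cells. The complement gene C4b was at 387 ± 270 and 63.3 ± 53.4 CPM, and C3 at 101 ± 82.2 and 25.6 ± 17.5 CPM. The chemokine Cxcl12 was at 77.2 ± 24.7 and 22.7 ± 11.505 CPM, and the fascia-associated gene Pi16 at 86.7 ± 56.3 and 31.0 ± 19.7 CPM. These 5 genes were lower in the Igfbp2 cells in 6 of 6 libraries. Grem1 was at 1184 ± 474 CPM with Igfbp2 and 1408 ± 272 CPM without, and lower with Igfbp2 in 5 of 6 libraries, while Mme was 199 and 39.9 CPM. The rule shapes the levels of Grem1, Wnt5a and Mme in this comparison. Cells without Igfbp2 had to reach 6 marker UMIs with the other 3 genes alone.

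Set beside the other 7805 gate fibroblasts, the Grem1/Wnt5a fibroblasts held more of a group of noncoding RNAs from a single imprinted locus on chromosome 12 and of several signalling genes. Since the cells were chosen by expression, these differences are described and not tested. Of 2972 genes at 50 CPM or more, 70 were higher and 301 lower in the members in all 10 libraries. Meg3 was at 1358 ± 747 CPM in the members and 818 ± 584 CPM in the others, Rian at 436 ± 233 and 261 ± 189 CPM, and Mirg at 94.7 ± 77.8 and 55.5 ± 54.9 CPM (SD, n = 10). B830012L14Rik stood at 130 ± 74.8 and 74.7 ± 60.8 CPM. In the mouse build GRCm38 (mm10) these 4 genes lie on the plus strand of chromosome 12, Meg3 at 109541001 to 109571726, Rian at 109603940 to 109661716, B830012L14Rik at 109695586 to 109702587 and Mirg at 109729764 to 109749460.

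Cyp2f2, a cytochrome P450, had the largest median difference among the higher genes, at 261 ± 180 CPM in the members and 119 ± 121 CPM outside. Sulf2, an extracellular sulfatase that edits heparan sulfate and through it Wnt and growth factor signalling, was at 303 ± 118 and 142 ± 85.3 CPM. The transcription factor Osr2 was at 252 ± 83.2 and 144 ± 70.7 CPM, and the cyclin gene Ccnd1 at 99.0 ± 50.3 and 53.0 ± 13.8 CPM. Fn1 for fibronectin was at 539 ± 207 and 283 ± 168 CPM, and the matrix gene Efemp1 for fibulin-3 at 483 ± 198 and 266 ± 123 CPM. The others named by the same rule were Ablim1, Glt8d2, Ddah1, Creb5, Akap12 and Gpnmb, with median log2 differences between 0.72 and 1.00.

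Several of the 8 genes named as lower in the members stood high in the Coch cells that the rule removed. Fmod, for the collagen-binding proteoglycan fibromodulin, was at 1.56 ± 3.21 CPM in the members, 360 ± 165 CPM in the other fibroblasts and 804 CPM in the fibroblasts with 3 or more Coch and Crabp1 UMIs. The peptide hormone gene Cck was at 0.489 ± 0.929, 127 ± 42.3 and 295 CPM. Tnmd, Ogn, Abca8b, Nav3, Lbp and Enpp2 completed the list, with median log2 differences from -4.30 to -2.34. Lbp, for a protein that binds bacterial lipopolysaccharide, was lower in the Coch cells than in the other fibroblasts as a whole in every control library. When the 3228 cells with 3 or more Coch and Crabp1 UMIs were left out of the comparison, the median log2 differences of Fmod and Cck shrank from -7.76 and -6.60 to -0.75 and -0.29, and all 16 of the higher genes kept a positive median, between 0.12 for Akap12 and 1.14 for Ccnd1. The median of 9 of the 24 named genes moved by more than the spread between libraries, among them Meg3 to 0.42, Efemp1 to 0.50 and Osr2 to 0.48, while that of Lbp was -3.00.

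**Figure D2:**
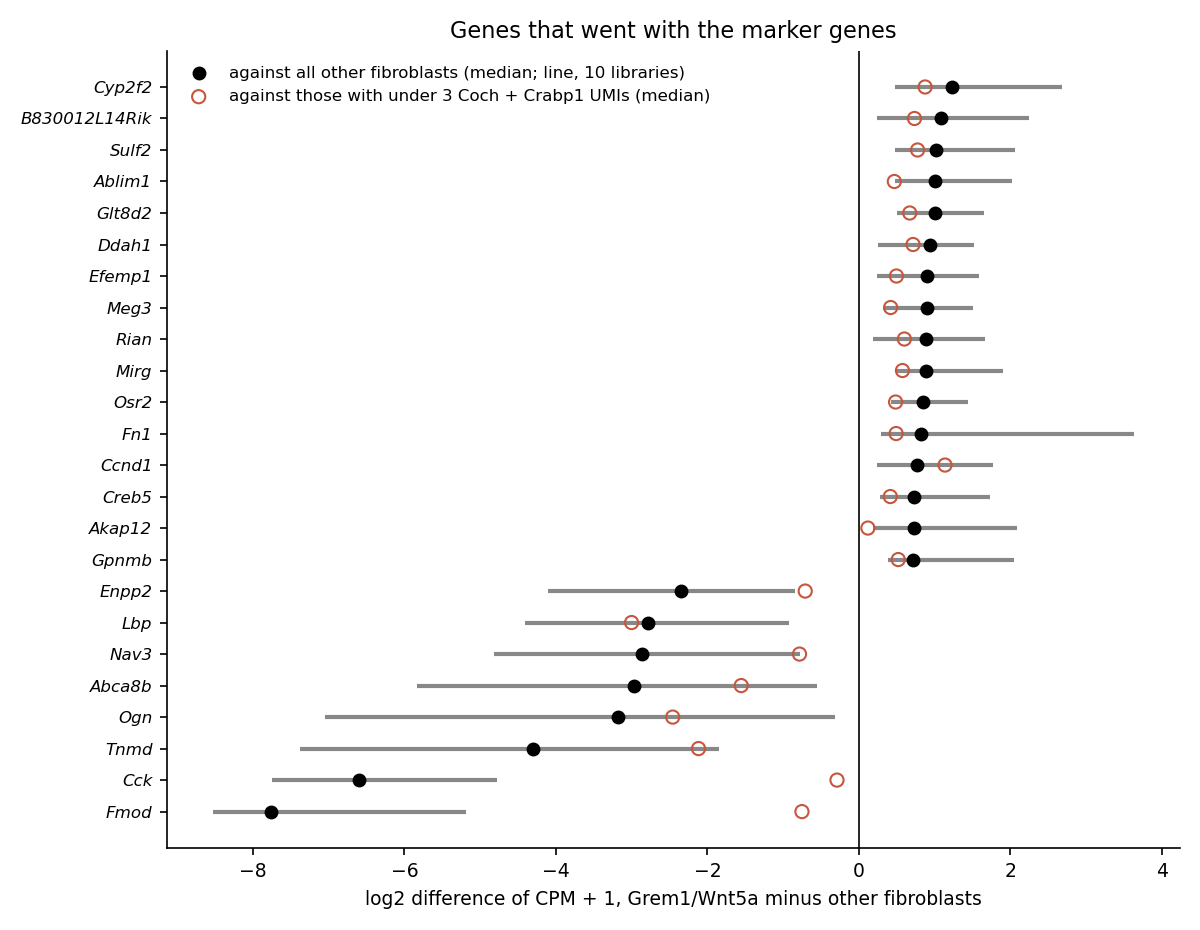
Filled points give the median over 10 libraries of the log2 difference in CPM between Grem1/Wnt5a fibroblasts and all other gate fibroblasts, with a line from the lowest to the highest library. Open points give the median when fibroblasts with 3 or more Coch and Crabp1 UMIs are left out, and the differences of Fmod and Cck then nearly vanish.

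Against the fibroblasts that were neither members nor Coch cells, the members held more F13a1, Stc1, Sema3a and Fst and less Mgp, Gpx3 and Lpl. This comparison was added after the data were seen and has no test. It held 2906 genes, of which 121 were higher and 165 lower in the members in all 10 libraries. F13a1 stood at 143 ± 84.4 CPM in the members and 14.9 ± 13.8 CPM outside, Stc1, for the hormone stanniocalcin, at 156 ± 103 and 21.4 ± 19.4 CPM, and the axon guidance gene Sema3a at 105 ± 55.7 and 16.4 ± 11.0 CPM. Fst, for the activin antagonist follistatin, was at 592 ± 598 and 208 ± 127 CPM. The adenosine-forming ectoenzymes Entpd1 and Nt5e were at 171 ± 75.3 and 84.1 ± 34.8 CPM and at 115 ± 46.3 and 53.9 ± 27.4 CPM.

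Among the genes lower in the members, Mgp, for the calcification inhibitor matrix Gla protein, was at 7.90 ± 8.32 CPM in the members and 148 ± 89.9 CPM outside, Gpx3, a secreted glutathione peroxidase, at 16.1 ± 13.2 and 254 ± 278 CPM, and Lpl, for lipoprotein lipase, at 66.4 ± 38.6 and 348 ± 179 CPM. The chemokine Cxcl14, the lipid carrier Apod, the oxygen-binding globin Cygb and Lbp were lower too, each in 10 of 10 libraries.

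Lists of marker genes gave no single known dermal layer for these cells. The 10 papillary fibroblast genes summed to 565 to 739 CPM in the members of the control libraries, against 420 to 501 CPM in the other fibroblasts. With the expander the ranges overlapped and the medians stood the other way round. The members were at 224 to 720 CPM (median 528) and the others at 646 to 944 CPM (median 791). The value of 224 CPM came from the library of 7 cells. Coch cells, a larger part of the others with the expander, summed to 751 to 839 CPM in controls and 726 to 1098 CPM with it. Their part in this change was not tested. The 12 reticular genes summed to 1434 to 1667 CPM, against 1923 to 2523 CPM outside, and 1 of them, Plac9a, was at 0 everywhere. With the expander these ranges overlapped, at 932 to 1606 and 837 to 1104 CPM. In controls the 11 fascia genes ran from 1193 to 1953 CPM in the members and from 1250 to 1960 CPM outside, so these ranges overlapped. With the expander they ran from 624 to 1374 CPM (median 837) and from 956 to 1383 CPM (median 1098). The 14 dermal papilla genes that the rule did not use summed to 483 to 828 CPM in the members of controls and to 831 to 1257 CPM outside. With the expander these sums were 577 to 1136 and 1399 to 1941 CPM.

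The first question the design allows is whether the expander changed how many fibroblasts were Grem1/Wnt5a fibroblasts. They were 34.9%, 32.5%, 22.5%, 21.0% and 32.5% of the gate fibroblasts in the control libraries and 23.5%, 15.4%, 7.03%, 4.29% and 4.22% in the expander libraries. Every expander library was below its control of the same day and round, and the arms overlapped only through the expander library of day 1, round 1. The mean was 28.7% ± 6.41 in controls and 10.9% ± 8.41 with the expander (SD, n = 5 each), a difference of -17.8 percentage points (exact two-sided permutation test over 252 arrangements, p = 0.0238, smallest possible p 0.00794). Permuted within the pairs that share a day and sequencing round, the exact p was 0.0625, the smallest that 5 pairs allow, so the call does not hold with the pairs as a block. The day 2, round 2, expander value came from 7 of 163 fibroblasts, and its exact Clopper-Pearson 95% interval of 1.74% to 8.65% covers counting error only.

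This fall rested on the limit on Coch and Crabp1. Fibroblasts with 6 or more marker UMIs and no other limit were 35.2% ± 4.85 of the gate in controls and 33.7% ± 7.45 with the expander (SD, n = 5 each, exact permutation p = 0.714, adjusted over the 3 shares tested p = 0.714). Fibroblasts with 3 or more Coch and Crabp1 UMIs were 11.6%, 21.0%, 23.2%, 28.7% and 23.2% in controls and 57.1%, 60.2%, 76.8%, 67.5% and 76.0% with the expander. The arms did not overlap, and the means were 21.6% ± 6.26 and 67.5% ± 8.96 (exact permutation p = 0.00794, adjusted p = 0.0238). Of the fibroblasts with 6 or more marker UMIs, the Coch and Crabp1 limit removed 17.6% ± 9.45 in controls and 67.4% ± 21.4 with the expander. Without that limit the difference in the share of members was -2.44 percentage points (exact permutation p = 0.659).

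Depth was higher with the expander. The median depth of the members was 13485 ± 2614 UMIs in controls and 19075 ± 4369 UMIs with the expander (SD, n = 5 each, exact permutation p = 0.0476). After thinning to 5000 UMIs, 3 or more Coch and Crabp1 UMIs were found in 15.6% ± 4.66 and 60.2% ± 8.88 of fibroblasts. Immune cells had them in 0.245% to 2.19% of cells. With the limits of the rule unchanged, members after this thinning were 22.2% of fibroblasts in controls and 11.1% with the expander. The difference was -11.1 percentage points (exact permutation p = 0.0397), and 4 of 5 pairs were lower. On day 1, round 1, the shares were 21.5% and 21.6%. With the marker, Coch and papilla limits lowered to 3, 2 and 2 UMIs, the difference was -17.9 percentage points, and 5 of 5 pairs were lower. Fibroblasts as a whole were 27.9% ± 9.11 of kept cells in controls and 14.3% ± 8.93 with the expander, which bears on the share of members among all cells.

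**Figure D3:**
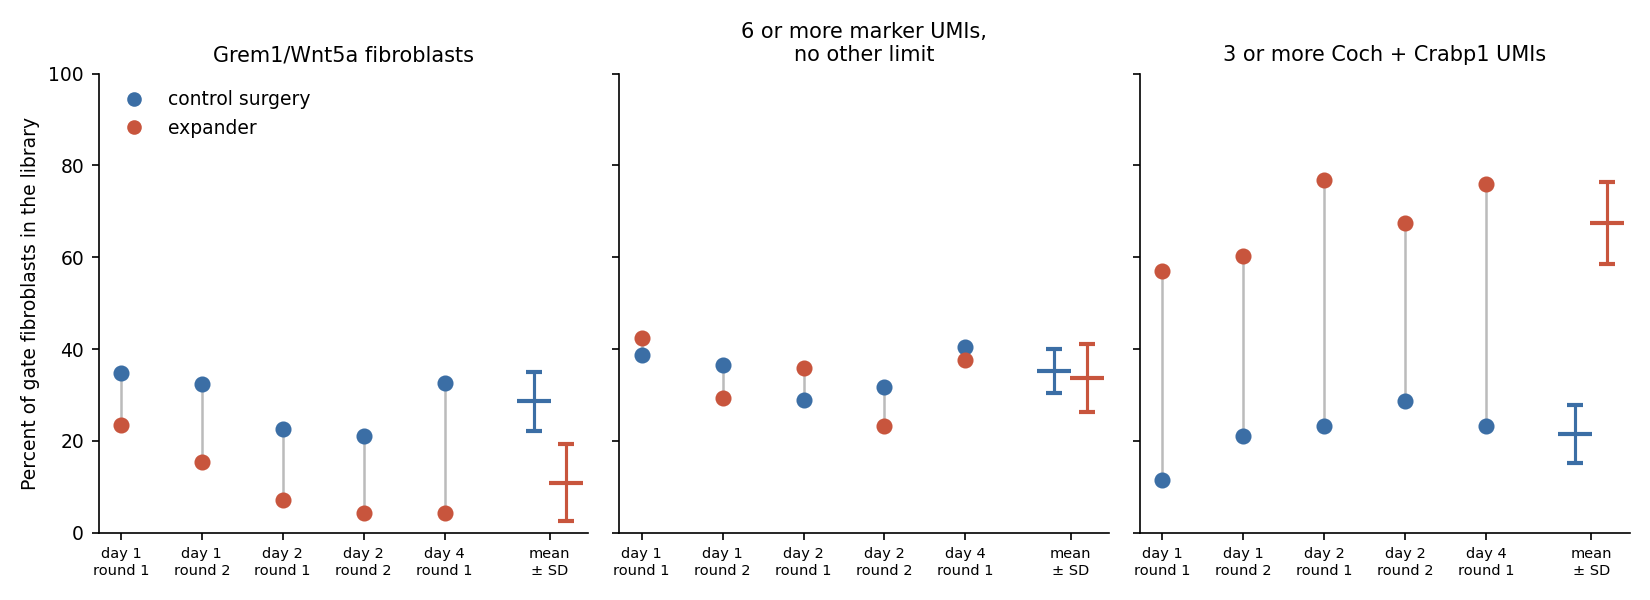
Each panel gives a share of the gate fibroblasts in percent for each library, by day and sequencing round, with control (blue) and expander (red) joined by a line and the mean ± SD over 5 libraries at the right. The Grem1/Wnt5a share was lower with the expander in 5 of 5 pairs, the share with 6 or more marker UMIs differed in both directions, and the share with 3 or more Coch and Crabp1 UMIs was higher in 5 of 5 pairs.

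Single mice could be told apart by hashing antibodies in 8 libraries, and control mice had the higher share on average. With at least 20 assigned fibroblasts required, 14 control mice had 14.6% to 44.6% of Grem1/Wnt5a cells among their fibroblasts, with a mean of 29.6% ± 9.77 (SD). The 12 expander mice had 0% to 28.4%, with a mean of 6.80% ± 7.77. On day 1, round 2, the arms overlapped, with 14.6%, 15.6% and 41.5% in the control mice and 0%, 14.8% and 28.4% in the expander mice. On day 2 the 7 control mice ran from 16.8% to 41.1% and the 5 expander mice from 2.56% to 8.20%. On day 4 the 4 control mice ran from 31.2% to 44.6% and the 4 expander mice from 2.53% to 5.13%. The mean difference within day and round was -22.6 percentage points. No test is given, since the mice of an arm in a round came from 1 pooled library and cannot be told apart from that pool. These shares rest on 2385 and 548 assigned fibroblasts and on the same Coch and Crabp1 limit.

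The second question is which genes differed between the arms in the Grem1/Wnt5a fibroblasts. Of the fibroblasts with 6 or more marker UMIs, the Coch and Crabp1 limit removed 17.6% ± 9.45 in controls and 67.4% ± 21.4 with the expander. A shift in which cells remained therefore cannot be told apart from a change within cells. Rises and falls below are differences between the arms in the summed members. UMIs were summed per library and tested with the quasi-likelihood test of edgeR with day as a covariate, and p-values were adjusted by the Benjamini-Hochberg method. Only libraries with 20 or more members entered, which left 5 control and 3 expander libraries. The expander libraries of day 2, round 2, and of day 4 are outside the test, and no expander library of day 4 is in it. With day as a covariate, the day 4 control then has no counterpart and adds nothing to the contrast of the arms. Control means, ranges and overlap counts below still include it. Of 10970 genes tested, 396 (3.61%) passed an adjusted p of 0.05, 184 higher (1.68%) and 212 lower (1.93%) with the expander. With the pair of day and round as a block, edgeR called 833 genes, 387 of them among the 396. In that fit the controls of day 2, round 2, and of day 4 have no partner and add nothing to the contrast. It rests on 3 pairs, with 2 residual degrees of freedom against 4 in the main fit. The 2 arms did not overlap for 346 of the 396, against 19.7% of all genes tested, and 392 moved one way in all 3 pairs. Both counts come from the libraries that the test used, so they are no separate support for the calls. Fold changes below are edgeR log2 values with their standard errors, expander against control. Of the 40 genes that the naming rules chose here, all except Capns2 also passed in the other gate fibroblasts. The direction was the same in each. The test of the difference described below called smaller falls in the members for Mirg, Spon2, Sema3b and Mmp27. It called larger falls there for Ogn, Ecm2 and Aspn. The others include the Coch cells in both tests.

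Tnc, Fst, Ccn2 and Timp1 were the 4 most abundant of the 12 largest rises with the expander. Tnc, for the wound matrix glycoprotein tenascin-C, was at 8.18, 15.8, 77.3, 241 and 89.3 CPM in the controls and at 497, 1835 and 1463 CPM in the 3 tested expander libraries. It rose by 5.28 ± 0.82 on the log2 scale (SE; edgeR adjusted p = 0.0267). The untested libraries of 7 and 13 cells had 820 and 1101 CPM, above every control as well.

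Fst, for follistatin, was at 108, 198, 223, 189 and 281 CPM in the controls and at 365, 1836 and 1227 CPM with the expander. It rose by 2.56 ± 0.44 (SE; edgeR adjusted p = 0.0316), with 1183 and 312 CPM in the untested libraries. Ccn2, a matricellular gene also known as connective tissue growth factor, was at 17.3, 70.5, 6.79, 29.0 and 73.3 CPM in the controls and at 172, 188 and 358 CPM with the expander (log2 fold change 2.74 ± 0.55, edgeR adjusted p = 0.0340). The untested values of 94.95 and 73.7 CPM were close to the highest control. The metalloprotease inhibitor gene Timp1 stood at 35.0, 41.6, 55.9, 311 and 187 CPM in the controls and at 168, 693 and 660 CPM with the expander, so that the arms overlapped. It rose by 2.70 ± 0.62 (SE; edgeR adjusted p = 0.0449).

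The other large rises were in genes of lower level. Il1rl1, for the interleukin-33 receptor ST2, stood at 5.35 ± 2.25 CPM in the controls (SD, n = 5) and at 21.8, 202 and 22.6 CPM with the expander; with the pair as a block it did not pass (edgeR adjusted p = 0.0549). Cntfr, for the receptor of ciliary neurotrophic factor, was at 10.7 ± 6.88 CPM and at 95.6, 101 and 38.2 CPM. The acute-phase gene Saa1 was at 0.142 to 4.27 CPM in the controls and at 57.7, 29.9 and 3.47 CPM, the last of these inside the control range. Hmga2, for a chromatin protein of growing tissue, was at 2.39 ± 1.56 CPM and at 14.1, 84.5 and 5.21 CPM. Ecscr, Chl1, Gm26682 and Capns2 completed the 12 largest rises, with log2 fold changes from 2.15 to 2.52. Ecscr is better known from endothelial cells, and the 6 endothelial genes summed to 7.83 to 31.8 CPM in the members of the controls and 0 to 66.3 CPM with the expander; their part in this rise was not tested.

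Gbp2, Ogn, Ndufa4l2 and Mirg were among the 12 largest falls. Gbp2, for an interferon-induced GTPase, was at 144, 142, 203, 277 and 220 CPM in the controls and at 34.6, 32.2 and 69.5 CPM with the expander. It fell by 2.18 ± 0.18 on the log2 scale (SE; edgeR adjusted p = 0.00216), and the untested libraries had 43.2 and 63.1 CPM. Ogn, for the small proteoglycan osteoglycin, was at 39.5, 50.6, 41.3, 43.4 and 62.1 CPM in the controls and at 5.64, 5.75 and 13.9 CPM with the expander. It fell by 2.86 ± 0.28 on the log2 scale (edgeR adjusted p = 0.00543), and the untested libraries of 7 and 13 cells stood at 0 and 126 CPM. Gbp2 and Ogn were the named genes that kept their call under all 19 alternatives in which they were tested.

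Ndufa4l2, a mitochondrial gene that hypoxia induces, was at 372, 447, 615, 398 and 855 CPM in the controls and at 155, 145 and 59.1 CPM with the expander. It fell by 2.16 ± 0.33 on the log2 scale (SE; edgeR adjusted p = 0.0267). The noncoding RNA Mirg, one of the members' own higher genes, was at 186, 191, 211, 78.3 and 134 CPM and at 34.9, 41.4 and 29.5 CPM (log2 fold change -2.51 ± 0.35, edgeR adjusted p = 0.0239). The arms of both genes did not overlap.

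Further large falls were seen in Gpx3, Camk2a, Sema3b, Ecm2 and Spon2, with log2 fold changes from -2.66 to -1.89, and in 2 genes better known from other cells. Krt17, a keratin of hair follicle epithelium, was at 1.04 to 57.4 CPM in the controls and at 5.26, 12.7 and 0 CPM with the expander. H2-Aa, an MHC class II gene of antigen-presenting cells, was at 18.6 to 28.7 CPM and at 5.45, 1.73 and 0 CPM. The 7 keratinocyte genes outside the rule summed to 15.1 to 138 CPM (median 112) in the members of the 5 controls and to 21.0 to 105 CPM (median 60.4) in those of the 5 expander libraries. The 8 immune genes outside the rule summed to 35.5 to 135 CPM (median 113) and to 25.9 to 167 CPM (median 52.6). No gene of either sum was at 0 in every library, and the part of such RNA in these 2 falls was not tested.

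**Figure D4:**
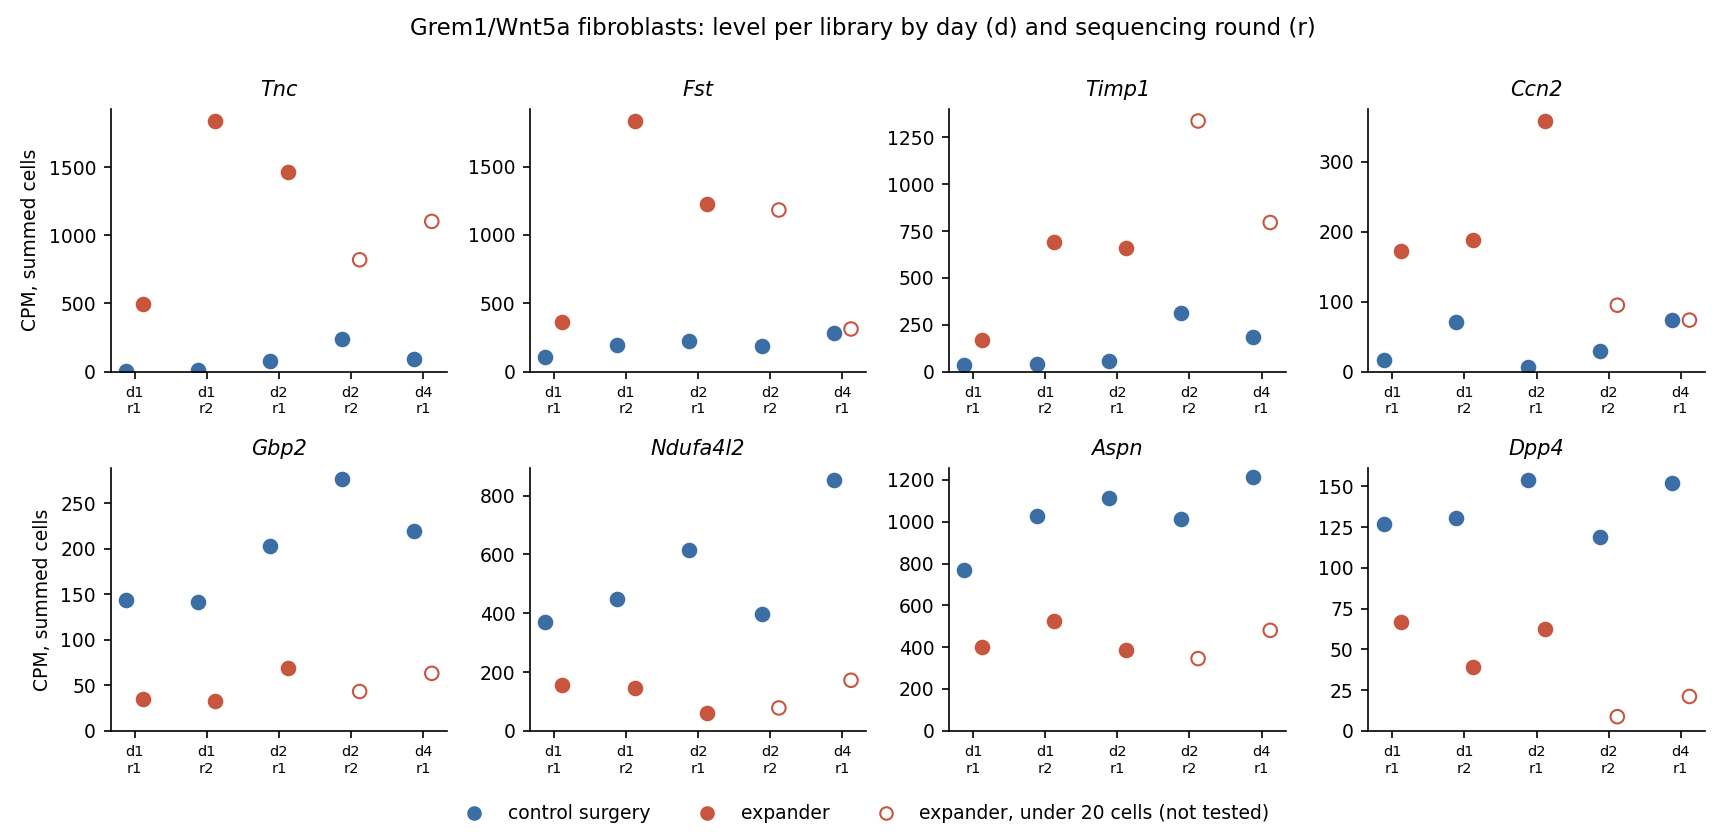
Each panel gives the level of a gene in CPM over the summed Grem1/Wnt5a fibroblasts of each library, by day (d) and sequencing round (r). Filled expander points (red) entered the test; open ones are libraries of 7 and 13 cells. Tnc and Fst were higher and Gbp2, Ndufa4l2, Aspn and Dpp4 lower in each tested expander library than in any control (blue), while Timp1 overlapped.

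Few genes of the signalling families of the 4 markers passed the test. With the pair as a block, edgeR called 1 Wnt, 4 BMP and 2 insulin-like growth factor genes, against 833 of all 10970 genes tested. Of 33 Wnt pathway genes tested in edgeR 1 passed, a share close to the 3.61% of all genes. It was the transcription factor Tcf7, at 20.03 ± 5.01 CPM (SD, n = 5) in controls and 45.9 ± 5.69 CPM (SD, n = 3) with the expander (log2 fold change 0.87 ± 0.20, edgeR adjusted p = 0.0450). Apcdd1, a Wnt inhibitor, stood at 255 ± 49.5 and 226 ± 57.5 CPM and did not pass (edgeR adjusted p = 0.117). Of 28 BMP genes, Fst was the 1 that passed. Among 13 genes of insulin-like growth factor signalling, 1 was lower, the secreted protease gene Htra1 at 640 ± 80.6 and 409 ± 85.6 CPM (edgeR adjusted p = 0.0494), and Igfbp5 at 1878 ± 619 and 967 ± 649 CPM did not pass (adjusted p = 0.172).

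Over all genes tested, 1.68% passed as higher and 1.93% as lower. Of 25 matricellular and activation genes tested, 4 passed, all of them higher (Tnc, Ccn2, Timp1 and Ccn3), with a median log2 fold change of 0.07 over the list against 0.00 over all genes. That only higher genes passed depends on the fit: DESeq2 called 4 higher and 4 lower, and edgeR with the pair as a block 4 higher and 6 lower, the latter including Fn1, Sparc and Lox. Of 45 other matrix genes, 9 were lower and 1 higher, with a median of -0.59, and 16 were lower and 1 higher with the pair as a block. Over all 10970 genes that block fit called 457 lower and 376 higher. The collagen gene Col5a2 was at 1456, 1220, 1576, 1451 and 1456 CPM in the controls and at 983, 657 and 839 CPM with the expander (log2 fold change -0.96 ± 0.21, edgeR adjusted p = 0.0404). The proteoglycan gene Aspn was at 770, 1028, 1113, 1014 and 1214 CPM and at 402, 524 and 387 CPM (log2 fold change -1.33 ± 0.20, edgeR adjusted p = 0.0267). In both the arms did not overlap. Omd, a relative of Ogn, fell from 10.5 ± 2.46 to 4.58 ± 0.597 CPM.

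Beside the lists that follow, 3.61% of all 10970 genes tested passed, 1.68% higher and 1.93% lower. Of 24 matrix proteases and inhibitors, 3 passed, all lower: Mmp27 from 145 ± 43.9 to 55.9 ± 26.9 CPM, Mmp23 from 125 ± 38.1 to 59.0 ± 27.3 CPM and Adamts12 from 12.2 ± 2.68 to 4.19 ± 1.25 CPM (SD, n = 5 and 3). The growth factor genes Tgfb2 and Pdgfd were the 2 of 22 that passed, both lower. Of 26 cytokine genes, Il1rl1 was higher and Csf1, a growth factor for macrophages, was lower, from 293 ± 41.9 to 184 ± 61.6 CPM. Of 18 acute inflammatory genes, 3 were higher, among them Steap4 (9.90 ± 4.35 to 42.5 ± 18.4 CPM) and Lcn2 (1.73 ± 2.19 to 11.9 ± 8.07 CPM), and 2 were lower, the hyaluronan synthase Has1 (818 ± 167 to 493.3 ± 13.8 CPM) and the adhesion gene Vcam1 (144 ± 47.5 to 54.6 ± 23.0 CPM). Among 18 genes of peptide processing, 1 passed: Dpp4, a peptidase of the cell surface like neprilysin, fell from 137 ± 15.8 to 56.1 ± 14.9 CPM (log2 fold change -1.41 ± 0.22, edgeR adjusted p = 0.0267).

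In the lists of 20 mechanical response genes, 26 immediate early and heat shock genes and 14 cell cycle genes, 0 passed in edgeR. At an unadjusted p under 0.05 these lists held 5, 8 and 1 genes, DESeq2 called 4, 4 and 0 of them, and edgeR with the pair as a block 2, 3 and 1. Over all 10970 genes the counts of these 3 settings were 2490, 791 and 833. The cytoskeletal gene Actb stood at 1979.6 ± 290 CPM in controls and 3477 ± 291 CPM with the expander (SD, n = 5 and 3, edgeR adjusted p = 0.0614, and 0.0323 with the pair as a block). Fos, which is also induced by dissociating tissue, stood at 2466 ± 611 and 3222 ± 629 CPM (edgeR adjusted p = 0.568). With the same block edgeR called 7 of the 24 proteases and inhibitors (1 higher), 4 of the 26 cytokine genes (2 higher), 8 of the 18 acute inflammatory genes (5 higher), 4 of the 22 growth factors (2 higher) and 4 of the 18 peptide processing genes, all lower.

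These calls depend on single libraries and on the depth of the data. The count of 396 fell to 7 without the control of day 1, round 1, to 135 and 62 without the controls of day 1, round 2, and day 2, round 1, and to 35 and 11 without the expander libraries of day 1, round 2, and day 2, round 1. Without the Coch and Crabp1 limit, which brings all 10 libraries into the fit, 2725 genes passed, 369 of them shared with the 396, and Capns2, Tcf7 and Vcam1 no longer passed (edgeR adjusted p = 0.166, 0.122 and 0.221).

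The third question is whether these fibroblasts answered the expander differently from the other gate fibroblasts. In the others, 3507 of 12247 genes (28.6%) passed, in a fit over all 10 libraries. The counts are not compared, since the groups differed in cell number and in libraries. The difference of the 2 responses was tested in edgeR on the 8 libraries with 20 or more of each, with the library as a block. Of 12717 genes, 348 (2.74%) passed, 215 with a more positive response in the Grem1/Wnt5a fibroblasts (1.69%) and 133 with a more negative one (1.05%). The count was 100 and 587 without the expander libraries of day 1, round 1, and day 2, round 1, and 209 and 211 without the controls of day 1, round 1, and day 4.

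Among the more positive ones, C7, Ace and Sema3c fell in the other fibroblasts and did not pass the test in the Grem1/Wnt5a cells (edgeR adjusted p = 0.204, 0.1495 and 0.748), although Ace did with the pair as a block (edgeR adjusted p = 0.00625). The complement gene C7 was at 134 ± 62.6 CPM in the other fibroblasts of controls and 13.98 ± 4.91 CPM with the expander, while the members stood at 51.5 ± 28.1 and 35.4 ± 32.9 CPM (SD, n = 5 and 3). The difference of the log2 responses was 2.29 ± 0.28 (SE; edgeR adjusted p = 0.00108). Ace, for the angiotensin-converting enzyme, was at 123 ± 41.1 and 22.7 ± 9.48 CPM in the others and at 66.7 ± 30.1 and 37.3 ± 16.4 CPM in the members (difference 1.60 ± 0.15, edgeR adjusted p = 0.000505). The guidance gene Sema3c was at 35.9 ± 12.2 and 12.7 ± 2.47 CPM in the others and at 16.9 ± 4.73 and 19.9 ± 2.33 CPM in the members. Fabp4, Clic5, Kcnj8, Opcml and Rnase1 were the other genes named by size in this direction.

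Of the 8 genes with the most negative difference, Lepr, Ifitm1, Tnfrsf11b, Pla2g7 and Megf6 rose in the other fibroblasts. Lepr, the leptin receptor, was at 44.6 ± 19.3 CPM in the others of controls and 131 ± 46.4 CPM with the expander, and at 12.9 ± 7.33 and 7.37 ± 2.02 CPM in the members (difference -2.30 ± 0.27, edgeR adjusted p = 0.00107). Ifitm1, an interferon-induced membrane protein gene, was at 50.8 ± 20.002 and 280 ± 124 CPM in the others and at 9.24 ± 5.61 and 21.5 ± 17.8 CPM in the members. Tnfrsf11b, for the decoy receptor osteoprotegerin, was at 15.96 ± 11.0 and 84.4 ± 50.6 CPM and at 5.84 ± 6.55 and 10.2 ± 9.45 CPM. Fibin, Ogn and Fscn1 completed the named genes. Tnc did not differ in response at this precision (difference 0.69, edgeR adjusted p = 0.505), nor did Fst (0.11, adjusted p = 0.904).

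The share of Coch cells in the gate moved with these results, from 21.6% in controls to 67.5% with the expander. When they were left out, 75 of 11873 genes (0.632%) passed, 49 of them shared with the 348, and 12 of the 16 named genes no longer passed. The differences of C7, Ace, Rnase1, Lepr and Pla2g7 became 1.13, 0.54, 0.57, -1.25 and -0.70, while those of Fabp4, Tnfrsf11b and Opcml stayed at 3.59, -1.96 and 1.31 (edgeR adjusted p = 0.190, 0.130 and 0.0504). Ifitm1, Fibin, Fscn1 and Clic5 still passed, with differences of -2.30, -1.29, -1.30 and 2.08 (edgeR adjusted p = 0.0213, 0.0239, 0.0486 and 0.0317). In that added comparison Cgref1 had the smallest adjusted p among the genes named by size (difference 1.60 ± 0.17, edgeR adjusted p = 0.00421). It stood at 75.2 ± 24.4 and 49.96 ± 3.39 CPM in the members and at 64.2 ± 21.4 and 14.9 ± 3.67 CPM in the others. Fndc1, a fibronectin domain gene, was at 222 ± 56.0 and 97.6 ± 58.8 CPM in the members and at 138 ± 39.2 and 26.3 ± 5.29 CPM in the others (difference 1.29 ± 0.26, edgeR adjusted p = 0.0443).

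**Figure D5:**
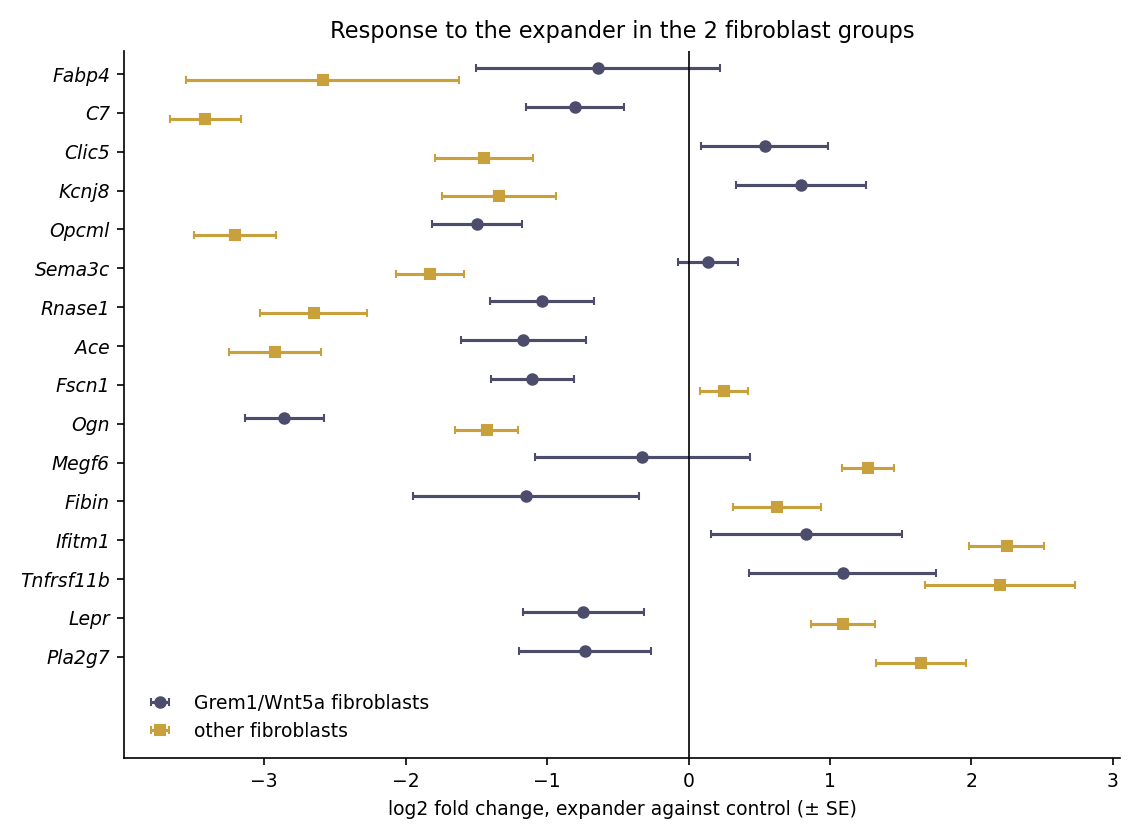
Points give the log2 fold change of expander against control with its standard error for the 16 genes named by size of the difference, in the Grem1/Wnt5a fibroblasts (circles) and in the other fibroblasts (squares), each from its own edgeR fit. C7 and Ace fell and Lepr and Ifitm1 rose in the other fibroblasts; without the Coch cells 12 of the 16 no longer passed, although Fabp4 and Tnfrsf11b kept differences of 3.59 and -1.96.

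A difference between days could be asked only of days 1 and 2. In edgeR, 1 of 10970 genes (0.00912%) passed, and 661 had an unadjusted p under 0.05; DESeq2 called 25. The gene was Ifi27l2a, an interferon-induced gene. It was at 6.88, 5.54, 6.79, 7.49 and 14.6 CPM in the controls and at 2.25, 1.15 and 172 CPM with the expander (difference of day 2 against day 1 on the log2 scale 6.36 ± 0.52, edgeR adjusted p = 0.00572). The day 2 expander arm of this fit is 1 library of 27 cells, assumed to vary like the other groups, and the call rests on it. The other fibroblasts of that library had 80.7 CPM, and the untested expander libraries of day 2, round 2, and day 4 were both at 0 CPM in the members.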

How the data were processed

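The files deposited by the authors are matrices of raw UMI counts. The submitters' processing notes name Cell Ranger 6.1.2 and the build mm10. Each matrix had 32285 genes. Kept cells had 200 genes and 500 UMIs or more and no more than 10% of UMIs from mitochondrial genes. There were 1927 to 8312 per library, from 17726739 to 75470722 gene UMIs. Library pairs shared at most 18 barcodes. The members, gene lists and some alternatives were chosen with earlier results of these data known. Doublets stayed in; as an alternative, cells marked by Scrublet (scanpy 1.11.5) or by more than 1 hashtag (HTODemux, Seurat 5.3.0, quantile 0.99) were removed. Scrublet marked under 0.5% of cells in 3 libraries, so it may not have worked there.

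Shares of cells were compared over libraries by exact permutation. Counts were summed per library, and genes passing filterByExpr were tested in edgeR 4.0.16 under R 4.3.3 after TMM scaling, day being a factor; DESeq2 1.42.0 was an alternative. CPM are of summed counts, and log2 differences without a test use CPM + 1. Named genes were the 12 largest changes per direction at 20 CPM or more that moved one way in all pairs, up to 4 passing genes per list, the 8 largest differences of response per sign, and the 16 higher and 8 lower genes at 50 CPM or more with 1 direction in all libraries. Some genes that these rules chose are not reported here. On simulated counts with 10970 genes, the test in members recovered 29.6% of changes of log2 size 1 and 85.9% of size 2, with 11 false calls; with 12717 genes, the test of the difference recovered 57.6% and 77.3%, with 12 false calls. Gene positions are from GENCODE M21 (GRCm38).

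By the labels, control and expander libraries form pairs of the same day and sequencing round. The correlation of their deviations in the members was 0.239, 0.150 and -0.0107 in the 3 pairs. Fits with the pair as a block are alternatives, given beside a result where they change its call or a count by over 1.5 times.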

Additional observations from a re-analysis of the deposited data

Results flagged for a closer look

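In the Grem1/Wnt5a fibroblasts, 1 of 32 groups of library values held a library far from the others by Dixon's test at the 95% level; chance flags about 1 in 20 groups. Chl1, for a neural cell adhesion protein, stood at 130 CPM in 1 control, that of day 2 in round 2, and at 40.4 CPM or less in the remaining controls.

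The response to the expander differed between the Grem1/Wnt5a and the other fibroblasts for 348 genes in edgeR, of which the 16 named by size follow. Without the Coch cells 12 of the 16 no longer passed; Clic5, Ifitm1, Fibin and Fscn1 did. The difference of log2 responses was 4.00 for Fabp4, 2.29 for C7, 1.97 for Clic5, 1.83 for Kcnj8, 1.66 for Opcml, 1.63 for Sema3c, 1.62 for Rnase1 and 1.60 for Ace. It was -2.65 for Pla2g7, -2.30 for Lepr, -2.07 for Tnfrsf11b, -2.02 for Ifitm1, -1.998 for Fibin, -1.97 for Megf6, -1.90 for Ogn and -1.75 for Fscn1. Fabp4 stood at 85.1, 6.33 and 1.74 CPM in the members of the 3 tested expander libraries and at 1.57 to 106 CPM in those of the controls, so the arms overlapped. The 8 adipocyte genes, Fabp4 among them, summed to 82.1 to 193 CPM in the members of the controls and 54.1 to 141 CPM with the expander. Their part in the difference was not tested.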

How the results depend on the processing

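The share of Grem1/Wnt5a fibroblasts was lower with the expander under every alternative run. The difference of -17.8 percentage points ran from -20.9 to -16.1 when a library was left out. After thinning to 5000 UMIs with the limits unchanged it was -11.1, with 4 of 5 pairs lower. Permuted within day-and-round pairs (replicate block), it was -17.8 with an exact permutation p = 0.0625, the smallest that 5 pairs allow; without the Coch and Crabp1 limit it was -2.44 and missed the threshold. The 396 genes changed in members became 791 with DESeq2, 1352 with no filter on low counts, 175 after thinning to 3000 UMIs, 6 with a limit of 10 marker UMIs (2 expander libraries left), 633 with no covariate, 900 with all libraries of at least 5 members, 2725 without the Coch and Crabp1 limit, 11 on day 1 alone, and 7 to 422 when a library was left out. With the replicate block they were 833, which included 387 of the 396; each pair shares a day and a sequencing round. The block lost 1 other call, that of Il1rl1. In the other fibroblasts the 3507 genes became 2065 after thinning, 1976 in the 8 libraries of the members' fit and 2337 without Coch cells, and 2689 to 3537 with a library left out. The 348 differences of response became 916 with no filter, 159 after thinning, 617 with the limit of 10, 75 without Coch cells, 106 with libraries of at least 5 members, and 100 to 587 with a library left out. The 1 gene that differed between days became 25 with DESeq2, 159 with no filter, and 0 after thinning or without doublets; with the limit of 10 it could not be fitted. The cause was not tested, apart from fewer genes or libraries where named. In refits of the 40 genes named for expansion in members, the call was kept 490 times and lost 260 times, and no gene changed direction.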
